A study of Mus musculus with 24 samples.

Results

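Transcripts of 8 genes known from blood monocytes, Ly6c2, Ccr2, Plac8, Chil3, Ms4a4c, Vcan, Fn1 and F13a1, were followed across 24 bulk RNA-seq libraries of brain microglia. They were chosen by symbol from a list of monocyte transcripts, and all 8 were found among the 20636 genes of the TPM tables (transcript level scaled to transcript length and library total) at both ages. These genes and the marker lists used below were chosen with earlier results of these data known. Their counts beside the shares over all genes are therefore a description and no independent test. The animals were C57BL/6J mice that were homozygous (HOM) or heterozygous (HET) for a knockout of 3110043O21Rik, the mouse counterpart of C9orf72, or wild type (WT), with no treatment named. Each genotype was sampled at 3 and at 17 months, with 4 animals in each of the 6 groups. The labels do not describe how the knockout allele was built, and the animals' sex is not given. Brains were stripped of meninges and digested with papain, myelin was depleted, and cells carrying CD11b were collected on magnetic beads. CD11b is shared by microglia, monocytes, neutrophils and the macrophages at the brain's borders, so all of these cells can enter such a preparation. P-values of genotype differences below are set against the spread between animals of a group. Those of correlations come from permuting all libraries of an age, so differences between genotypes enter them. Libraries are named here by genotype and the animal number of the tables.

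Monocytes arise in the bone marrow and circulate in a classical and a patrolling form in the mouse. Classical monocytes carry high Ly6C and the chemokine receptor Ccr2, leave the marrow in response to the Ccr2 ligands Ccl2, Ccl7 and Ccl12, and enter inflamed tissue, where they can become macrophages. Patrolling monocytes carry little Ly6C and Ccr2, depend on the nuclear receptor Nr4a1, and survey the inside of blood vessels. In the healthy brain few monocytes cross the vessel wall, and microglia maintain themselves locally.

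The libraries held 21.8 to 33.8 M alignments at 3 months and 16.7 to 46.4 M at 17 months, and each HOM library was deeper than every HET and WT library of its age. The targeted gene averaged 0.139 TPM in HOM, 9.73 in HET and 22.8 in WT libraries at 3 months, and 0.0360 TPM in HOM, 7.204 in HET and 14.9 in WT libraries at 17 months, which fits the labels. Y-linked transcripts placed 2 HOM, 4 HET and 1 WT animals among males at 3 months, and 3 HOM, 0 HET and 1 WT at 17 months, so genotype and sex overlap in part. Csf1r, the growth factor receptor that microglia depend on, averaged 6061 ± 408 TPM in HOM, 5934 ± 357 in HET and 6536 ± 412 in WT libraries at 3 months (SD, n = 4 each). At 17 months its level was 3447 ± 464 TPM in HOM, 3594 ± 814 in HET and 3713 ± 553 in WT libraries. The 8 monocyte-listed genes together summed to between 104 and 862 TPM. The number of cells of a type and the RNA per cell cannot be told apart in such bulk values.

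Read assignment matters for the first gene, because Ly6c2 has a near-identical neighbour. Ly6c2 (chr15:75108158-75111970, minus strand, GRCm38/mm10, GENCODE M21) encodes the Ly6C antigen that defines classical monocytes, whereas Ly6c1 (chr15:75044018-75048830, minus strand) is known from endothelial cells. The coding sequences are 396 bases long in both and differ at 9 positions (97.73% identity, GENCODE M21). The first 300 bases are shown because the distinction between both transcripts rests on so few bases, with capitals at the 7 differences they hold.
Ly6c2: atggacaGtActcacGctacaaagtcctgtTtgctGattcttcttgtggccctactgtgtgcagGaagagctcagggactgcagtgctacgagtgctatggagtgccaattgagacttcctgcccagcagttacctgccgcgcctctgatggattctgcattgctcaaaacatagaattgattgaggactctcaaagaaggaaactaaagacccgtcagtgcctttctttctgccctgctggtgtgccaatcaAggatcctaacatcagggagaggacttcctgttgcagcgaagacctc
Ly6c1: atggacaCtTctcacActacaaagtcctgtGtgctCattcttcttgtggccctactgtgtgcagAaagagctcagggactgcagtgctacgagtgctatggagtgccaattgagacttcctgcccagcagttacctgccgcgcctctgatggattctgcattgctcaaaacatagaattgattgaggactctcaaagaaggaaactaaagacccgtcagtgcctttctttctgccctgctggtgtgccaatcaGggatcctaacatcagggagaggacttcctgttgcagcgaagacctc
The longest stretch without a difference spans 188 bases, and 114 of 322 windows of 75 bases, the length taken for a read here, are the same in both. Over the whole Ly6c2 transcript, 21.9% of such windows also occur in Ly6c1. The same count was 14.2% for Chil3 (shared with Chil4 and Gm6522), 3.94% for Ms4a4c (shared with Ms4a4b), and 0 for Plac8, Vcan, Fn1 and F13a1. In TPM, how the authors' tools divided such reads is not given in the sources used here, so Ly6c2 and Chil3 carry that uncertainty. Chil4 stayed at or under 0.0621 TPM in every library and Ms4a4b at or under 3.73 TPM. Ms4a4d stayed at or under 0.275 TPM. Ms4a4a, a neighbour of Ms4a4c that only the RPKM tables list, averaged 10.2 ± 1.5 RPKM in HOM, 10.1 ± 1.60 in HET and 6.84 ± 0.907 in WT microglia at 3 months (SD, n = 4 each), without overlap between mutants and WT. At 17 months it averaged 17.1 ± 5.11 RPKM in HOM, 13.4 ± 6.51 in HET and 7.53 ± 2.57 in WT microglia, and HET overlapped WT. All HOM libraries were above all WT libraries at both ages, as in 3.6% of all genes in RPKM at 3 months and 15% at 17 months. The share for HET was not computed in RPKM.

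Ly6c2 was spread widely among animals of each genotype. At 3 months it stood at 56.0, 34.6, 32.4 and 20.04 TPM in HOM, at 10.5, 13.4, 34.7 and 30.7 TPM in HET, and at 22.7, 16.9, 13.3 and 7.88 TPM in WT microglia. All HOM libraries but HOM-8287, which lay inside the WT range, were above all WT libraries. At 17 months the levels were 68.3, 36.8, 158 and 36.9 TPM in HOM, 90.1, 13.9, 22.3 and 86.8 TPM in HET, and 7.82, 28.5, 23.5 and 11.4 TPM in WT microglia. All 4 HOM libraries exceeded all 4 WT libraries at that age, as in 9.5% of all genes tested. The HET libraries split into a pair above the WT range and a pair within it.

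The HOM levels of the neighbour, Ly6c1, lay below those of WT at 3 months and above them at 17 months. At 3 months Ly6c1 stood at 41.3, 21.5, 39.9 and 31.5 TPM in HOM, at 129, 28.5, 209 and 52.5 TPM in HET, and at 127, 73.8, 153 and 44.5 TPM in WT microglia. Every HOM library was below every WT library, as in 15.1% of all genes tested, whereas the mean of Ly6c2 was higher in HOM animals. In RPKM (reads scaled to gene length and depth) the Ly6c1 groups overlapped at 3 months, with 3.98 to 7.99 in HOM and 7.11 to 28.1 in WT microglia. The ratio of Ly6c1 to Ly6c2 was 0.623 to 1.57 in HOM, 1.71 to 12.3 in HET and 4.35 to 11.6 in WT libraries at 3 months. The 17-month ratio was 1.49 to 5.14 in HOM, 0.817 to 5.40 in HET and 4.09 to 13.6 in WT libraries. At 17 months Ly6c1 itself averaged 200.6 ± 27.4 TPM in HOM, 73.8 ± 16.6 in HET and 123 ± 22.6 in WT microglia (SD, n = 4 each). All 4 HOM libraries were then above all 4 WT libraries, as they were for Ly6c2 and for 9.5% of all genes tested. The Ly6c1 difference from WT was 0.71 (SE 0.16, adjusted p = 0.0642, limma) in TPM and 0.67 (adjusted p = 0.0356) in RPKM. Ly6c1 was higher in HOM than in HET microglia at 17 months by 1.45 on the log2 scale (SE 0.16, adjusted p = 0.00134, limma). In that comparison 11 of 13 endothelial and mural markers tested were called higher, Ly6c1 among them, against 1.69% of all genes in that direction. All 4 HET animals were female there and 3 of the 4 HOM animals male, so sex and genotype cannot be told apart well. With a term for sex 45 genes were called in it, against 219 without. The HOM against HET difference of Ly6c1 was larger at 17 than at 3 months by 2.72 on the log2 scale (SE 0.60, adjusted p = 0.0329, limma), and that of Ly6c2 was not found to change with age (-0.10, SE 0.81, adjusted p = 0.993). All 4 HET animals were male at 3 months and female at 17 months, so age and sex cannot be told apart well in these differences.

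Ccr2 (chr9:124101950-124113557, plus strand) encodes the receptor that draws classical monocytes out of the marrow. At 3 months it stood at 14.3, 32.3, 12.1 and 13.9 TPM in HOM, at 14.5, 19.1, 12.5 and 10.3 TPM in HET, and at 10.8, 9.94, 10.9 and 16.5 TPM in WT microglia. The groups overlapped, and HOM-8285 was the highest library. At 17 months the levels were 12.5, 12.2, 11.2 and 9.92 TPM in HOM, 9.56, 7.38, 18.01 and 12.7 TPM in HET, and 8.70, 7.84, 10.98 and 9.06 TPM in WT microglia. Ccr2 thus had the narrowest spread of the 8 genes at 17 months, with 2.44 times between its lowest and highest library, against 32.3 times for Chil3.

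Plac8 (chr5:100553725-100572245, minus strand) encodes a small cysteine-rich protein of myeloid and other cells. Plac8 stood at 140.0, 52.7, 37.7 and 30.2 TPM in HOM, at 18.8, 31.8, 27.8 and 26.7 TPM in HET, and at 39.7, 22.8, 29.6 and 16.3 TPM in WT microglia at 3 months. HOM-8282 was far above the rest, HOM-8285 also exceeded all WT libraries, and the other HOM libraries lay within the WT range. At 17 months the levels were 107, 51.5, 559.7 and 66.3 TPM in HOM, 52.3, 32.7, 49.1 and 85.7 TPM in HET, and 21.3, 75.3, 22.0 and 42.3 TPM in WT microglia. A single library, HOM-7899, stood far above all others at that age, and the groups overlapped.

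Chil3 (chr3:106147554-106167564, minus strand) encodes Ym1, a secreted chitinase-like protein made by monocytes, neutrophil precursors and some macrophages. Chil3 stood at 44.5, 37.9, 65.1 and 23.2 TPM in HOM, at 20.3, 18.5, 52.9 and 59.5 TPM in HET, and at 22.7, 22.2, 8.77 and 8.19 TPM in WT microglia at 3 months. The levels at 17 months were 42.7, 43.6, 44.7 and 38.8 TPM in HOM, 108, 4.23, 18.7 and 136 TPM in HET, and 4.77, 15.3, 15.4 and 12.4 TPM in WT microglia. The HOM libraries lay above all WT libraries at both ages, by a narrow margin at 3 months (23.2 TPM in HOM-8287, against 22.7 TPM in WT-8322). Over all genes tested, 1.78% lay that way at 3 months and 9.5% at 17 months. The 17-month HET group held both the lowest and the highest values of the 12 animals.

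Ms4a4c (chr19:11404770-11427246, plus strand) encodes a membrane protein of the MS4A family. Ms4a4c stood at 7.86, 9.51, 4.51 and 7.03 TPM in HOM, at 5.49, 6.87, 5.70 and 6.03 TPM in HET, and at 3.75, 3.73, 3.55 and 4.40 TPM in WT microglia at 3 months. All HOM and all HET libraries were above all WT libraries, and the WT animals varied little (SD 0.374 TPM). Over all genes tested, 1.78% lay that way in HOM against WT and 1.3% in HET against WT. At 17 months it stood at 11.3, 6.25, 22.3 and 8.25 TPM in HOM, at 8.88, 7.72, 14.4 and 10.5 TPM in HET, and at 7.60, 8.12, 8.15 and 9.76 TPM in WT microglia. The genotypes overlapped at the later age, and HOM-7899 was again the highest library.

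Vcan (chr13:89655312-89742509, minus strand), which encodes the matrix proteoglycan versican and is strong in human classical monocytes, stayed under 1 TPM in all 24 libraries. It stood at 0.301 to 0.425 TPM in HOM, at 0.250 to 0.446 in HET and at 0.119 to 0.403 in WT microglia at 3 months. At 17 months Vcan stood at 0.420, 0.477, 0.664 and 0.424 TPM in HOM, at 0.252, 0.178, 0.355 and 0.284 TPM in HET, and at 0.177, 0.407, 0.232 and 0.279 TPM in WT microglia. Each HOM library was above each HET and WT library at 17 months, by a narrow margin over WT (0.420 against 0.407 TPM). Among genes averaging at least 1 TPM, which exclude Vcan, 9.5% had all HOM libraries above all WT libraries. Above all HET libraries the share was 6.68%.

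Fn1 (chr1:71585520-71653200, minus strand) encodes fibronectin, a matrix and plasma protein made by monocytes, endothelial cells and many others. Fn1 stood at 12.9, 7.42, 8.55 and 7.39 TPM in HOM, at 14.6, 7.50, 23.2 and 8.75 TPM in HET, and at 16.7, 10.2, 18.3 and 8.27 TPM in WT microglia at 3 months. At 17 months the levels were 26.9, 25.1, 32.1 and 20.8 TPM in HOM, 21.8, 19.9, 24.8 and 12.2 TPM in HET, and 15.2, 21.7, 16.8 and 14.6 TPM in WT microglia. The HOM mean was below the WT mean at 3 months and above it at 17 months, with overlapping ranges at both ages.

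F13a1 (chr13:36867178-37050244, minus strand) encodes the A subunit of clotting factor XIII and is expressed by monocytes and tissue macrophages. F13a1 stood at 50.7, 73.8, 51.4 and 52.9 TPM in HOM, at 82.9, 92.9, 58.8 and 49.8 TPM in HET, and at 52.0, 56.7, 49.7 and 62.8 TPM in WT microglia at 3 months. The levels at 17 months were 51.2, 65.01, 33.5 and 67.1 TPM in HOM, 46.1, 44.0, 87.0 and 33.8 TPM in HET, and 38.4, 31.6, 45.7 and 29.0 TPM in WT microglia. The groups overlapped throughout. HOM-7899, the highest library for 5 of the 8 genes at 17 months, had the lowest F13a1 level of its group.

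**Figure D1:**
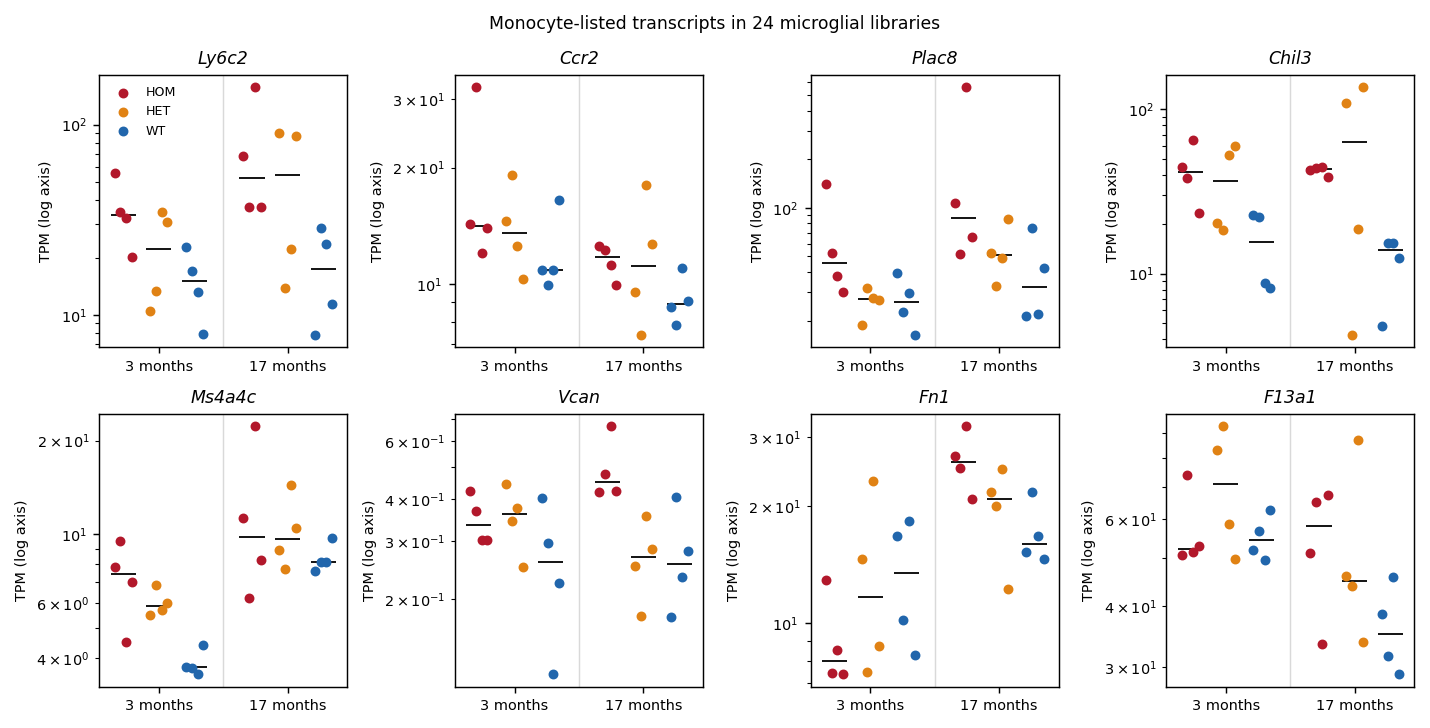
Level of each gene (TPM, log axis) in the 24 libraries, with 3 months at the left and 17 months at the right of each panel and HOM, HET and WT from left to right within an age; each point is an animal and each bar a group median. HOM-7899 stands alone in Plac8 at 559.7 TPM, and the 17-month HET group is split in Ly6c2 and Chil3.

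Across genes, which TPM allows within a library, the order of the mean levels at 3 months ran from F13a1 (61.2 TPM over the 12 libraries) through Plac8 (39.5), Chil3 (32.0), Ly6c2 (24.4), Ccr2 (14.8), Fn1 (11.99) and Ms4a4c (5.70) to Vcan (0.321). At 17 months Plac8 came first at 97.1 TPM, followed by Ly6c2 (48.7), F13a1 (47.7), Chil3 (40.4), Fn1 (20.99), Ccr2 (10.8), Ms4a4c (10.3) and Vcan (0.346). Most neighbours in these orders overlapped over the libraries, and the 17-month order moved in part with HOM-7899. Without that library Plac8 was still first, at a mean of 55.1 TPM over 11 libraries, while F13a1 (49.0) and Chil3 (40.1) came before Ly6c2 (38.8). The ages come from tables made separately and were not tested against each other. Among WT animals, Ms4a4c averaged 8.41 ± 0.937 TPM at 17 months and 3.85 ± 0.374 TPM at 3 months (SD, n = 4 each), without overlap, and 6.87% of 11436 genes were higher at 17 months in that way. F13a1 averaged 36.2 ± 7.48 TPM in WT animals at 17 months and 55.3 ± 5.79 TPM at 3 months, also without overlap, but so were 52.2% of all genes lower at 17 months.

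The first comparison asked whether monocyte transcripts differ between HOM and WT microglia at 3 months. No member passed the test (0 of 7 genes kept), where 0.0604% of all 11587 genes tested did (7 genes). Genes whose mean over an age's libraries was under 1 TPM were dropped, Vcan among them, and a gene was called at a Benjamini-Hochberg adjusted p under 0.05 in limma on log2(TPM + 1). The log2 differences were 1.46 for Chil3 (SE 0.45, adjusted p = 0.146), 1.18 for Ly6c2 (SE 0.41, adjusted p = 0.169), 1.04 for Plac8 (SE 0.40, adjusted p = 0.190) and 0.73 for Ms4a4c (SE 0.16, adjusted p = 0.0838). Ccr2 differed by 0.47 (SE 0.27), F13a1 by 0.036 (SE 0.18) and Fn1 by -0.48 (SE 0.33), each with an adjusted p of at least 0.358. Before adjustment 4 of the 7 genes had a p under 0.05, all with a positive difference, against 2.57% of all genes in that direction. These were not separate results, because Ly6c2 moved with Chil3 and with Plac8 across the libraries (Pearson r = 0.86 and 0.79). The median over the 7 genes was 0.73, against -0.099 over all genes tested. Chil3 and Ms4a4c were the 2 members whose HOM libraries lay above all WT libraries, as 1.78% of all genes did. Ms4a4c was called when HOM-8286 was left out (adjusted p = 0.0410, range 0.0410 to 0.270 over all alternatives). The difference of Plac8 was 0.59 without HOM-8282 and that of Ccr2 0.17 without HOM-8285.

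HET microglia at 3 months also yielded 0 of 7 members called against WT, beside 0.0432% of all genes (limma). Chil3 differed by 1.19 (SE 0.45, adjusted p = 0.165) and Ms4a4c by 0.53 (SE 0.16, adjusted p = 0.106), and both had an unadjusted p under 0.05, against 2.35% of all genes in that direction. The other differences were 0.45 for Ly6c2 (-0.35 with array weights), 0.32 for F13a1, 0.21 for Ccr2, 0.0025 for Plac8 and -0.045 for Fn1. Ms4a4c was the only member without overlap, where 1.3% of all genes had all HET libraries above all WT libraries. The 4 HET animals were male and 3 of the 4 WT animals were female, so sex and genotype cannot be told apart well in this comparison. With a term for sex, Ccr2 differed by -0.28 and Plac8 by -0.29. Against HET, HOM microglia had 0 of 7 members called (0.0259% of all genes), with differences between -0.43 (Fn1) and 1.04 (Plac8) and 1 unadjusted p under 0.05, that of Plac8, against 3.3% of all genes in that direction. Without HOM-8282 the Plac8 difference was 0.58.

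At 17 months HOM and WT microglia differed in the same direction for all 7 genes kept, and again none passed the test (limma, 0 of 7, against 0.712% of 11792 genes). The log2 differences were 1.91 for Ly6c2 (SE 0.63, adjusted p = 0.133), 1.86 for Chil3 (SE 0.80, adjusted p = 0.232), 1.75 for Plac8 (SE 0.63, adjusted p = 0.159) and 0.59 for Fn1 (SE 0.20, adjusted p = 0.139). F13a1 differed by 0.54 (SE 0.27), Ms4a4c by 0.33 (SE 0.29) and Ccr2 by 0.30 (SE 0.21). Before adjustment 4 of 7 genes had a p under 0.05, against 13% of all genes in that direction, and the median was 0.59, against 0.054 over all genes. Here too Ly6c2 moved with Chil3 and with Plac8 across the libraries (Pearson r = 0.87 and 0.80). Ly6c2 and Chil3 did not overlap between HOM and WT, as 9.5% of all genes tested did with HOM higher. Fn1 was called in the RPKM tables (difference 0.61, adjusted p = 0.0451, range 0.0402 to 0.368 over all alternatives), and Chil3 when HOM and WT animals alone entered the fit (adjusted p = 0.0311, range 0.0311 to 0.454). Without HOM-7899 the difference was 1.01 for Plac8, 1.46 for Ly6c2 and -0.00025 for Ms4a4c. Vcan, tested among all genes listed with no filter, differed by 0.23 (adjusted p = 0.174).

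In HET against WT microglia at 17 months, 0 of 7 members were called and 0 had an unadjusted p under 0.05 (limma, 0.237% of all genes called). The differences were 1.56 for Chil3 (SE 0.80), 1.28 for Ly6c2 (SE 0.63), 0.55 for Plac8, 0.46 for F13a1, 0.29 for Ccr2, 0.25 for Ms4a4c and 0.17 for Fn1. The Chil3 difference was 0.90 without HET-7796 and 2.48 without HET-7794. Against HET, HOM microglia had 0 of 7 called (1.86% of all genes), with differences between 0.012 (Ccr2) and 1.19 (Plac8) and no unadjusted p under 0.05, and that of Plac8 was 0.46 without HOM-7899. Vcan did not overlap between HOM and HET (difference 0.24, adjusted p = 0.202 with no filter), where 6.68% of the genes tested lay without overlap in that direction. No member's genotype difference was found to depend on age. The adjusted p of the difference between ages was at least 0.132 for each of the 7 genes in HOM against WT, 0.668 in HET against WT and 0.424 in HOM against HET. Fn1 had the smallest, with a HOM against WT difference that was 1.07 larger at 17 months than at 3 months (SE 0.40, limma). An unadjusted p under 0.05 was found for 1 member, Fn1, in HOM against WT (18.4% of all genes in that direction) and in HOM against HET (9.34%), and for 0 in HET against WT. Of 11436 genes, 0.254% were called for such a difference in HOM against WT, 0.691% in HET against WT and 2.03% in HOM against HET. The HET animals were all male at 3 months and all female at 17 months. Age and sex therefore cannot be told apart well in the differences that involve HET.

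**Figure D2:**
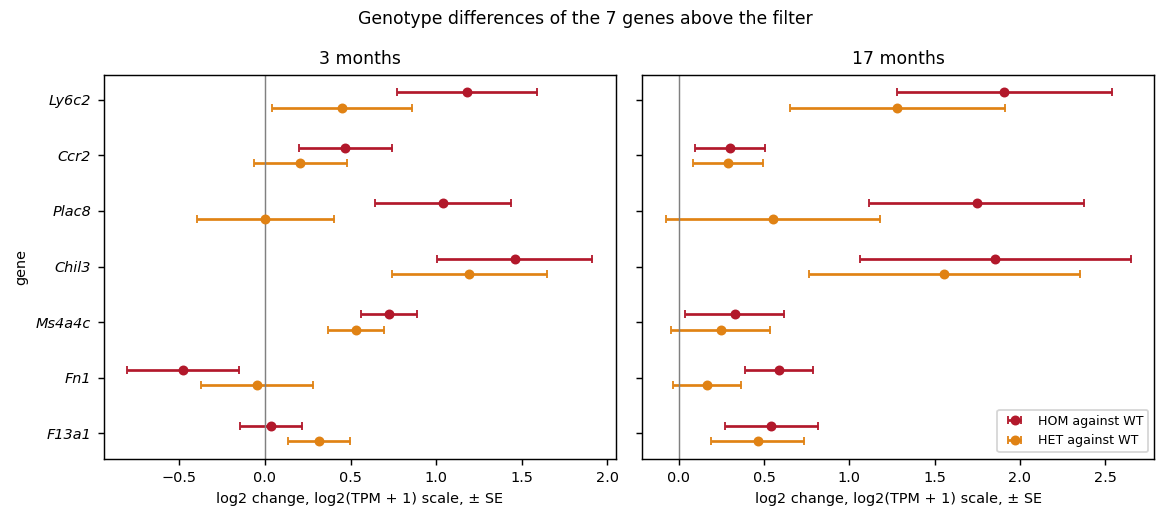
Log2 difference of HOM (upper points) and HET (lower points) microglia from WT microglia for the 7 genes tested, on the log2(TPM + 1) scale at 3 months (left) and 17 months (right); bars are standard errors from limma, with 4 animals per group. None of the differences passed the test after adjustment; the standard errors of Ly6c2, Plac8 and Chil3 are the widest at both ages.

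The RPKM tables, which the authors made separately, gave the same signs for the 7 genes in HOM against WT at both ages. At 3 months the differences on the log2(RPKM + 1) scale were 1.46 for Chil3, 1.17 for Ly6c2, 1.08 for Plac8 and 0.65 for Ms4a4c, with adjusted p between 0.125 and 0.339 (limma). At 17 months they were 1.86 for Ly6c2, 1.81 for Chil3 and 1.78 for Plac8, with adjusted p of 0.0916 for Ly6c2, 0.172 for Chil3 and 0.0963 for Plac8. Chil3 and Ms4a4c at 3 months and Ly6c2, Chil3 and Vcan at 17 months again had all HOM libraries above all WT libraries, and so did Fn1 at 17 months in RPKM, where 3.6% of all genes lay that way at 3 months and 15% at 17 months.

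Whether the genes moved together across animals was asked next, over the 12 libraries of each age and 42 pairs in all (permutation test, 100000 resamples, two-sided, Benjamini-Hochberg over the 42 pairs). Ly6c2 and Chil3 were the only pair that passed by both coefficients at both ages. At 3 months their Pearson r was 0.86 (p = 0.00058, adjusted 0.00812) and Spearman's rho 0.86 (p = 0.00064, adjusted 0.0134), and r was 0.85 without the 2 libraries farthest in Ly6c2. At 17 months r was 0.87 (p = 0.00029, adjusted 0.00812) and rho 0.90 (p = 0.00013, adjusted 0.00546), and r was 0.92 without the 2 farthest libraries. With genotype means removed, r was 0.84 at 3 months and 0.81 at 17 months.

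Ly6c2 and Plac8 were tied at 17 months (permutation test, r = 0.80, p = 0.00058, adjusted 0.00812; rho = 0.85, p = 0.001, adjusted 0.014), with r = 0.64 without the 2 farthest libraries and 0.72 within genotypes. At 3 months r was 0.79 (permutation p = 0.00096, adjusted 0.0101) and rho 0.68 (p = 0.0175, adjusted 0.107), with r = 0.58 without HOM-8282 and WT-8326. Within genotypes the 3-month r was 0.685. Ccr2 and Ms4a4c had r = 0.72 at 3 months (permutation p = 0.00425, adjusted 0.0357) and 0.74 within genotypes. Their rho was 0.60 (permutation p = 0.0426, adjusted 0.208), and r was 0.46 without HOM-8285 and HET-8303, so this relation depended in part on those libraries. No other pair passed. At 3 months 13 of 21 pairs had a positive r with a median of 0.090, and at 17 months 18 of 21 did, with a median of 0.44. Ly6c2 and Ccr2, which together define classical monocytes, had r = 0.026 at 3 months and 0.35 at 17 months. F13a1 had r = -0.42 to Ly6c2 at 3 months and -0.19 to Plac8 at 17 months.

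**Figure D3:**
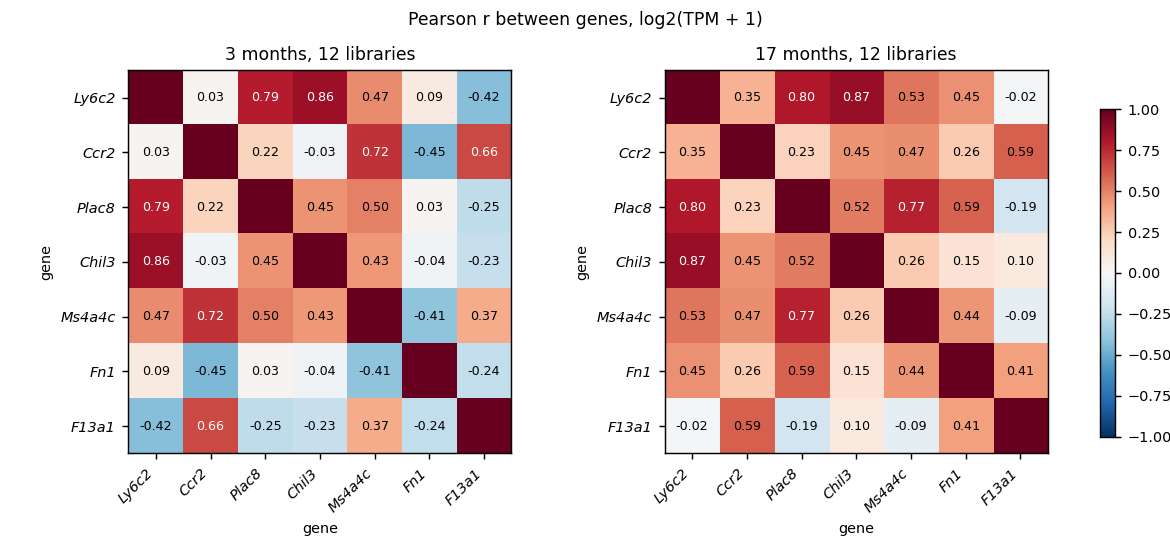
Pearson r of log2(TPM + 1) between each pair of the 7 genes over the 12 libraries of 3 months (left) and of 17 months (right), red for positive and blue for negative values. Ly6c2 and Chil3 hold the highest value at both ages (0.86 and 0.87), and 3 of 21 pairs are negative at 17 months, against 8 of 21 at 3 months.

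The promoters of the pair tied at both ages are given for reference, as the 250 bases before the first annotated start (RefSeq, GRCm38.p6, minus strand for both). Entries were found for 7 of the 8 genes. Capitals mark GAGGAAGT, a form of the site bound by PU.1, the transcription factor of the myeloid lineage.
Ly6c2, chr15:75111972-75112221: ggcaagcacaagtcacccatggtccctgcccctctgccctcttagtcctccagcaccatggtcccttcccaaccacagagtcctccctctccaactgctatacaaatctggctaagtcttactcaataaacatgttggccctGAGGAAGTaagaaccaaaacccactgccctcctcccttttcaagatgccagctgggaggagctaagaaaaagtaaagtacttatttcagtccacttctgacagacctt
Chil3, chr3:106167565-106167814: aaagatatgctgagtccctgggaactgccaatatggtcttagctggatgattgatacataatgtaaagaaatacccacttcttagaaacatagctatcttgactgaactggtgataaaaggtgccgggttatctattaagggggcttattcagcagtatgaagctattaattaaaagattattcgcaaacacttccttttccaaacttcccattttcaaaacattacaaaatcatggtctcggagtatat
Read on both strands, GAGGAAGT occurs in 2.44% of 32851 promoters of this length, and it lies 108 bases before the first start in Ly6c2. The window of a second annotated Ly6c2 start, not printed, holds the same copy at 142 bases and another at 8 bases before that start. The neighbour Ly6c1 also holds a copy, 127 bases before its second annotated start. These letters are not in the Chil3 window. A C/EBP motif, TTGCNNAA, occurs in 9.56% of promoters and in neither of the windows printed.

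Each of the 7 genes had a different set of closest partners among 11435 genes, ranked by Pearson r over all 24 libraries after removing the mean of each genotype and age. These r values describe the libraries and carry no test, and all share depth and preparation. Ly6c2 was closest to S100a6 (r = 0.94), Hp, which encodes haptoglobin (0.92), and S100a11 (0.92). Of 22 other genes listed for classical monocytes, 7 were among its 50 closest, and so were 7 of 15 neutrophil genes. Chil3 was the 21st closest gene to Ly6c2 and Plac8 the 84th, whereas Ccr2 was 4522nd (r = -0.11).

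Plac8 was closest to the orphan receptor gene Gpr141 (r = 0.95), to Msrb1 (0.92) and to Ear2 (0.91), a ribonuclease gene of patrolling monocytes in the mouse. Of 12 patrolling monocyte genes, 7 were among its 50 closest, and the median r over the 12 was 0.77, against -0.18 over all genes. In HOM-7899, where Plac8 peaked, the summed level of the 12 patrolling genes was 1335 TPM, and the other 3 HOM libraries held 370.2, 402 and 386 TPM. The sums at 17 months were 197 to 324 TPM in HET and 177 to 229.6 in WT libraries. In HOM-8282, the highest library at 3 months, the sum was 443 TPM, against ranges of 218 to 443 in HOM, 168 to 287 in HET and 177 to 233 in WT libraries. All 12 genes were above 0 in every library. HOM-7899 also had the highest sum of its age for 6 erythrocyte genes (2073 TPM), against 123 to 479 in the other HOM, 36.1 to 360.5 in HET and 48.2 to 699 TPM in WT libraries. Its sum of 14 T and NK cell genes was 171 TPM, against 83.5 to 98.8 in the other HOM, 68.8 to 107 in HET and 47.1 to 145 TPM in WT libraries. What part these cells had in the Plac8 level was not tested.

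Chil3 was closest to S100a9 (r = 0.95), Camp (0.94) and Retnlg (0.94), which encode neutrophil granule and cytosolic proteins. Of 15 neutrophil genes, 12 were among its 50 closest, and the median r over the 15 was 0.93, against -0.36 over all genes. The neutrophil genes, of which 15 of 16 are listed, summed to 2210 to 5177 TPM in HOM, 1984 to 5517 in HET and 1197 to 2886 in WT libraries at 3 months. At 17 months they summed to 2640.3 to 6554 TPM in HOM, 913 to 11841 in HET and 742 to 2881 in WT libraries. HET-7791 and HET-7796, the highest in Chil3, held 11580.4 and 11841 TPM. S100a9 averaged 1832 ± 722 TPM in HOM, 2636 ± 2539 in HET and 645 ± 372 in WT libraries at 17 months (SD, n = 4 each). Of the 15 neutrophil genes, 0 were called in any comparison (limma), although in HOM against WT 9 had an unadjusted p under 0.05 with a higher level at 3 months, 1 with a lower level, and 7 with a higher level at 17 months. Over all genes those shares were 2.57% higher and 17.1% lower at 3 months, and 13% higher at 17 months. Their median difference in HOM against WT was 1.21 at 3 months and 1.63 at 17 months, against -0.099 and 0.054 over all genes. Mpo and Elane, made by the earliest precursors, were at 0 in at least 1 library, although all 15 genes averaged at least 1 TPM at each age. The part of neutrophils in the Chil3 and Ly6c2 levels was not tested.

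Fn1 was closest to Vegfc (r = 0.92), Thbd (0.92) and Hdac7 (0.90), which endothelial cells express. Its median r to 13 endothelial and mural genes was 0.76, against 0.043 over all genes. The median was also 0.64 to 7 oligodendrocyte genes and 0.45 to 7 choroid plexus and ependyma genes, so the likeness was not particular to vessel genes. The sum of the endothelial and mural genes, with 14 of 14 listed and Slco1a4 at 0 in some libraries, was 116 to 171 TPM in HOM, 138 to 778 in HET and 188 to 559 in WT libraries at 3 months. The 17-month sums were 564 to 769 TPM in HOM, 255 to 354 in HET and 372 to 498 in WT libraries. The HOM libraries were thus below all WT libraries at 3 months and above them at 17 months, the same direction as the Fn1 means at each age. The pericyte genes Pdgfrb and Vtn were called higher in HOM than in WT microglia at 17 months, by 0.57 (adjusted p = 0.0459, limma) and 0.93 (adjusted p = 0.0440). Both lay close to the threshold. In that comparison 84 genes were called, against 5 with a term for sex, 13 with no filter and 19 with pseudocount 0.1. There 3 of the 4 HOM animals and 1 of the 4 WT animals were male, so sex and genotype cannot be told apart well. Whether vessel cells carried the Fn1 difference was not tested.

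F13a1 was closest to Cd163 (r = 0.93), Mrc1 (0.92) and Dab2 (0.91), which border-associated macrophages express. Of 14 border-associated macrophage genes, 9 were among its 50 closest, with a median r of 0.78, against 0.20 over all genes. All 14 were above 0 in every library, and they summed to 991 to 1308 TPM in HOM, 1083 to 1531 in HET and 1039.7 to 1161 in WT libraries at 3 months. The 17-month sums were 718 to 1250.0 TPM in HOM, 695 to 1547 in HET and 589.7 to 1061 in WT libraries. Mrc1 averaged 111 ± 24.8 TPM in HOM, 129 ± 36.7 in HET and 99.4 ± 23.5 in WT libraries at 3 months (SD, n = 4 each).

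Ms4a4c was closest to Irf7 (r = 0.86), Sirpb1a (0.86) and Zbp1 (0.85), of which Irf7 and Zbp1 are induced by type I interferon. These ties were looser at 3 months (r from 0.65 to 0.74) than at 17 months (0.90 to 0.92). Irf7 averaged 25.7 ± 4.79 TPM in HOM, 25.6 ± 1.65 in HET and 25.4 ± 3.76 in WT libraries at 3 months, where Ms4a4c did not overlap between mutants and WT. Ccr2 was closest to 2010315B03Rik (r = 0.86), Tomm20 (0.85), a mitochondrial import receptor gene, and Sh3bgrl (0.84). Among the members, F13a1 was its nearest (r = 0.60, rank 299), and none of the 22 classical monocyte genes was among its 50 closest.

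**Figure D4:**
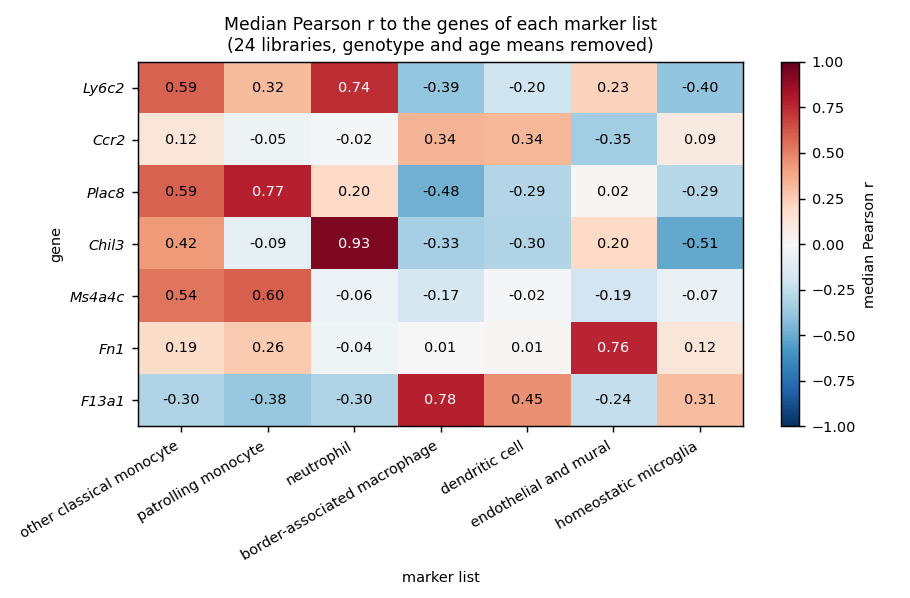
Median Pearson r between each of the 7 genes (rows) and the genes of 7 marker lists (columns), over 24 libraries with the mean of each genotype and age removed. The highest value of a row lies under neutrophils for Chil3 (0.93) and Ly6c2 (0.74), under patrolling monocytes for Plac8 (0.77) and Ms4a4c (0.60), under vessel genes for Fn1 (0.76) and under border-associated macrophages for F13a1 (0.78).

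Measured by their closest partners, the 7 genes ranked did not all follow the markers of a single cell type. Ly6c2 went with classical monocyte and neutrophil genes, and Plac8 with patrolling and also classical monocyte genes. Chil3 went with neutrophil genes, Fn1 with vessel genes and less closely with oligodendrocyte genes, and F13a1 with border macrophage genes. The median r to the other 22 classical monocyte genes was 0.59 for Ly6c2, 0.59 for Plac8 and 0.54 for Ms4a4c. To the 4 erythrocyte genes kept at both ages it was 0.67 for Ly6c2, 0.57 for Chil3 and 0.48 for Plac8. It was 0.35 for Fn1, 0.35 for Ms4a4c, 0.069 for Ccr2 and -0.42 for F13a1. The erythrocyte value was above the classical monocyte value for Ly6c2, Chil3 (0.42) and Fn1 (0.19), and below it for the other genes. What part blood carried into the preparation had in these levels was not tested. Ccr2, a defining gene of classical monocytes, had a median r of 0.12 to their other 22 genes, and Vcan was under 1 TPM throughout.

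**Figure D5:**
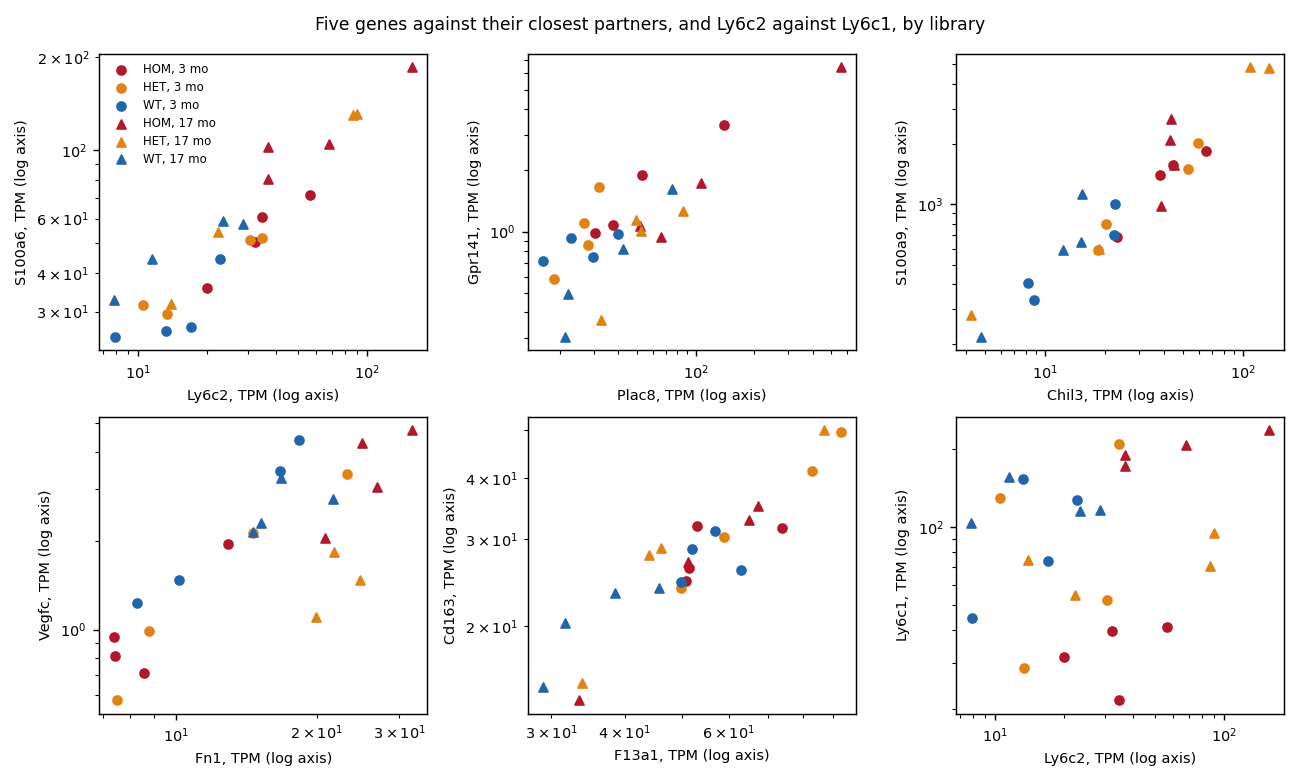
Level in each of the 24 libraries (TPM, both axes log) of Ly6c2, Plac8, Chil3, Fn1 and F13a1 against the gene with the highest r to each, and of Ly6c2 against its neighbour Ly6c1; circles are 3 months, triangles 17 months, and colours the genotypes. Chil3 and S100a9 lie along a line over all groups (r = 0.95), whereas Ly6c1 is low in the 3-month HOM libraries (21.5 to 41.3 TPM) at Ly6c2 levels of 20.04 to 56.0 TPM.

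Genes that guide monocytes were examined from a list of ligands, adhesion molecules and growth factor receptors. Of its 22 genes, 19 were kept at 3 months and 21 at 17 months, and 0 were called in each of the 6 comparisons (limma). Before adjustment 8 of 19 had a p under 0.05 in HOM against WT at 3 months, 5 of them with a higher level in HOM and 3 with a lower level, beside 2.57% and 17.1% of all genes. At 17 months 10 of 21 did, 8 of them higher and 2 lower, beside 13% and 5.62% of all genes. The share of lower genes at 3 months was thus close to that of all genes. The Ccr2 ligand Ccl12 averaged 278 ± 31.0 TPM in HOM, 253.0 ± 50.6 in HET and 186 ± 15.6 in WT microglia at 3 months (SD, n = 4 each). Its difference from WT there was 0.57 in HOM (SE 0.12, adjusted p = 0.0815) and 0.42 in HET (SE 0.12, adjusted p = 0.0909). At 17 months Ccl12 averaged 272 ± 42.5 TPM in HOM, 327 ± 77.4 in HET and 349 ± 60.2 in WT microglia. Ccl2 averaged 81.0 ± 31.6 TPM in HOM, 58.5 ± 32.4 in HET and 63.7 ± 31.2 in WT microglia at 3 months, and 56.1 ± 12.5 TPM in HOM, 42.1 ± 16.5 in HET and 42.1 ± 3.15 in WT microglia at 17 months. Ccl7 averaged 25.8 ± 6.80 TPM in HOM, 25.5 ± 9.95 in HET and 15.1 ± 6.12 in WT microglia at 3 months, and 32.3 ± 10.1 TPM in HOM, 24.2 ± 18.8 in HET and 13.9 ± 5.32 in WT microglia at 17 months.

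Of 22 other classical monocyte genes, 0 were called in any comparison (limma), while 11 had an unadjusted p under 0.05 and a higher level in HOM than in WT microglia at 3 months, and 14 did at 17 months, against 2.57% and 13% of all genes. They had a median difference in HOM against WT of 0.37 at 3 months (20 of 22 positive) and 0.70 at 17 months (19 of 22 positive). Lyz2, the lysozyme gene with the highest level of that list, averaged 1772 ± 322 TPM in HOM, 1467 ± 114 in HET and 1357 ± 138 in WT microglia at 3 months. Of 12 patrolling monocyte genes, 1 was called higher in HOM than in WT microglia at 17 months (0.466% of all genes), and 11 had an unadjusted p under 0.05 with a higher level (13% of all genes). That gene was Nr4a1 (209 ± 104 TPM in HOM and 69.0 ± 12.7 in WT, difference 1.49, adjusted p = 0.0468, limma), which is also an immediate early gene. Its call lay close to the threshold, and sex and genotype overlap in that comparison, where 84 genes were called, against 5 with a term for sex. The median over the 12 genes was 1.48 in that comparison and 0.048 in HET against WT at the same age.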

How the data were processed

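Bulk RNA-seq of CD11b-sorted mouse microglia was deposited as 2 tables per age. The authors gave TPM summed to genes, and RPKM with the number of alignments per library, per the file headers. Salmon 0.8.2, Partek 7.17.0918, TopHat2 2.1.1 and, as build, mm10 are named with DESeq2 per the submitters' processing notes, which tie no tool to a table. The annotation is not given in the sources used here. Count models were not run because read counts per gene were not used here, and the depth behind single values is unknown. Columns carry an animal number and genotype (hemi was read as HET), and 3 unnamed columns were not used. These numbers could not be tied to the labels' replicate numbers, so animals were unpaired replicates. The smallest SD of log2 differences between 2 libraries was 0.226, and none looked like a copy of another.

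For each age, genes averaging 1 TPM or more were put on the log2(TPM + 1) scale and fitted with limma 3.58.1 under R 4.3.3 (all 3 genotypes, moderated tests with trend, two-sided, Benjamini-Hochberg over all genes). Fold changes of low genes are understated on this scale. The fit was checked on simulated data. The difference between ages was tested over 24 libraries. Correlations used Python 3.11.15 and numpy 2.4.6. Members and lists were chosen with earlier results of these data known. Named genes were the 8 members, the 3 closest partners of each, paralogs that share reads, and genes of the lists by level or call. Alternatives were pseudocount 0.1, no filter, a mean of at least 5 TPM, median centring, quantile normalization, RPKM tables, a sex term (sex from 4 Y-linked genes at a limit of 5 TPM), array weights, only 2 genotypes, and leaving out each library.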

Additional observations from a re-analysis of the deposited data

Results flagged for a closer look

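Dixon's test at its 95% critical value for 4 animals singled out 4 values, from 3 libraries, in 48 groups of the 8 genes, where chance gives about 1 in 20, or 2.4. Plac8 stood at 559.7 TPM in HOM-7899 at 17 months, against 51.5 to 107 TPM in the other 3 HOM animals. Ccr2 stood at 32.3 TPM in HOM-8285 at 3 months, against 12.1 to 14.3 TPM in the other 3. F13a1 in the same library stood at 73.8 TPM, against 50.7 to 52.9 TPM in the other 3. Ccr2 stood at 16.5 TPM in WT-8326 at 3 months, against 9.94 to 10.9 TPM in the other 3 WT animals.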

How the results depend on the processing

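No paired analysis was possible because the table columns carry an animal number and not the replicate number of the labels. Over all alternatives the members' calls were few. Array weights called 2 members in HOM against WT at 3 months (Ly6c2, adjusted p = 0.0418, range over all alternatives 0.0418 to 0.377; Chil3, 0.0219, range 0.0219 to 0.318), 2 in HET against WT at 3 months (Ms4a4c, 0.0452, range 0.0452 to 0.556; F13a1, 0.00389, range 0.00389 to 0.797), 4 in HOM against HET at 3 months, and 1, Fn1, in HOM against WT at 17 months and in its difference between ages. They also called 1836, 3507 and 3074 genes at 3 months (HOM against WT, HET against WT, HOM against HET) and 1858, 659 and 1136 at 17 months. The RPKM tables called 1 member at 17 months (Fn1 in HOM against WT), and the fit of only 2 genotypes called 1 (Chil3). Leaving out single libraries gave 0 to 1 members called in HOM against WT at each age (Ms4a4c without HOM-8286, Fn1 without HET-7796) and 0 elsewhere.

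Counts over all genes moved more, in the order HOM against WT, HET against WT, HOM against HET. At 3 months, no filter gave 38, 58 and 5; a mean of at least 5 TPM gave 23, 89 and 1; the sex term gave 2 and 3 for the first 2, and the fit of 2 genotypes 79, 3 and 5. HOM against WT and HOM against HET gave 26 and 5 with median centring and 2 and 7 with quantile normalization. The RPKM tables gave 1 each for HET against WT and HOM against HET. At 17 months, HOM against WT gave 19 with pseudocount 0.1, 13 with no filter, 609 with median centring, 633 with quantile normalization, 932 in RPKM, 5 with the sex term and 211 with 2 genotypes. HET against WT gave 0 with no filter, 1 with either scaling, 17 in RPKM, 220 with the sex term and 0 with 2 genotypes. HOM against HET gave 89 at 5 TPM and 45 with the sex term. Scaling also moved the split of these calls. HOM against WT at 17 months had 55 higher and 29 lower, against 204 and 405 with median centring and 278 and 355 with quantile normalization. HOM against HET had 199 and 20, against 153 and 94 and 131 and 64, and HOM against WT at 3 months had 2 and 5, against 22 and 4 with median centring. Leaving out 1 library gave 2 to 118, 3 to 467 and 3 to 66 at 3 months, and 1 to 368, 0 to 239 and 104 to 246 at 17 months. The lowest counts in HOM against WT came without HOM-8282 and without HOM-7893, the highest without HET-8304 and without HET-7796. The cause was not tested.

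Some differences changed sign, the widest being Ly6c2 in HET against WT at 3 months (0.45 as reported, -0.35 with array weights). For HET against WT at 3 months, Fn1 was 0.065 with median centring, 0.054 with quantile normalization, 0.027 in RPKM, 0.079 with the sex term, 0.080 with array weights and -0.33 to 0.17 without single libraries. With the sex term, Ccr2 was -0.28 and Plac8 -0.29. With array weights, Plac8 was -0.36. Plac8 ran from -0.21 to 0.20 without single libraries. F13a1 in HOM against WT at 3 months was -0.023 with the sex term, -0.038 with array weights and -0.091 to 0.098 without single libraries. Ms4a4c in HOM against WT at 17 months ran from -0.00025 to 0.56, and Vcan in HET against WT was 0.015 in RPKM. The other member differences from WT kept their sign under every alternative run.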
